A study of Rattus norvegicus with 18 samples.

Results

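Natriuretic peptides are hormones of the stressed heart, and 8 genes of their system were followed across every library of the series: the peptide genes Nppa, Nppb and Nppc, the receptor genes Npr1, Npr2 and Npr3, and the genes of the processing enzymes Corin and Furin. They were taken by gene symbol from the deposited table of 19880 genes. The study sequenced 18 RNA libraries of neonatal rat ventricular cardiomyocytes, primary heart muscle cells from Sprague-Dawley rats at postnatal day 2, pre-plated for 1 h to take out other cell types. All cultures, controls included, had 10% fetal bovine serum and were treated with phenylephrine (PE), which activates alpha-1 adrenergic receptors and drives hypertrophic growth, at 20 µM for 24 h. Cells were infected with an adenovirus for sORF6, sORF7 or sORF8, 3 short open reading frames whose sequence and product the labels do not give, or with the control virus of that sORF. Each of the 6 groups held 3 libraries, and no group went without PE or without virus. Separate cultures or dissections are not named for the replicates, so every p-value measures just the spread among libraries, part or all of which may be technical.

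Nppa and Nppb encode the precursors of atrial and B-type natriuretic peptide, which cardiomyocytes secrete when stretched or driven to hypertrophy. Corin, a protease on the cardiomyocyte surface, and furin, a convertase of the secretory pathway, cut the precursors into active hormone. Npr1 encodes the guanylyl cyclase receptor of both cardiac peptides and Npr2 that of the C-type peptide encoded by Nppc, while Npr3 encodes the receptor that takes all 3 peptides out of circulation. Receptor binding raises cyclic GMP (cGMP), and the ventricular production of Nppa and Nppb is a fetal trait that hypertrophy brings back.

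Nppa and Nppb moved together and in a different direction by experiment: both rose with sORF6 and with sORF8 and both fell with sORF7, each against its own control virus. Furin fell by a small amount with sORF6, Npr3 rose with sORF8, and no change of Npr1, Npr2, Corin or Nppc passed the test in any of the 3 experiments. Changes were called at an adjusted p under 0.05 in edgeR's quasi-likelihood test, adjusted by the Benjamini-Hochberg method over 14870 genes tested. With sORF6, 2 of the 8 genes rose and 1 fell, where 3.85% of all genes were called (0.968% up, 2.88% down). With sORF7, 0 rose and 2 fell, where 7.77% of all genes were called (4.12% up, 3.66% down). With sORF8, 3 rose and 0 fell, where 3.75% of all genes were called (2.03% up, 1.72% down). The median log2 fold change of the 8 genes was 0.10, -0.17 and 0.03 in the 3 experiments, and that of all genes tested 0.00 in each.

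The genes of both cardiac peptides lay side by side on chromosome 5 of the Rnor_6.0 assembly, on the plus strand, with Nppb (164796176 to 164797538) starting 12.2 kb before Nppa (164808407 to 164809716). The 250 bases before each gene start are shown, from RefSeq on the GRCr8 build. Capitals mark every match found on either strand. The motif GATAA is a core that GATA factors bind. The overlapping motif TGATA is a second form of it. AAGTG is the core of NKX2-5 sites, and the motif CATTCC that of TEAD sites. A CArG box, the site of SRF, was searched as well, only in its strict form CCWWWWWWGG (W for A or T).
Nppa promoter, chr5:163711934-163712183, plus strand: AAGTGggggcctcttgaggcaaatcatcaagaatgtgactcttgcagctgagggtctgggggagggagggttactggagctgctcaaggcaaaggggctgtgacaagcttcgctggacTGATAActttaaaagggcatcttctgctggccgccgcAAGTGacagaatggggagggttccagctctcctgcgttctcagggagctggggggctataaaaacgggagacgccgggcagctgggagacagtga
Nppb promoter, chr5:163699758-163700007, plus strand: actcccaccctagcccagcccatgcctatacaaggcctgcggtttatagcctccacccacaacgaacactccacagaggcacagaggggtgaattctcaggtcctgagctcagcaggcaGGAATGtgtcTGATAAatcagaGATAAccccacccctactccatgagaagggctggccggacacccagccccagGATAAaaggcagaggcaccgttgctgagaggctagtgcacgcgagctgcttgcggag

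Nppa held 1 TGATA and 1 GATAA in the same stretch, at -132 to -127 from the gene start, and AAGTG at -250 to -246 and at -95 to -91. Nppb held GATAA at -120 to -116, -109 to -105 and -57 to -53, the first joined to TGATA at -121 to -117, and CATTCC on the minus strand at -131 to -126. Both windows thus held TGATA running into GATAA, and no CArG box of the strict form lay in either. In Nppa, ctttaaaagg follows TGATAA directly and differs from that form by 1 letter. Such near forms were not searched. Of 27457 promoter windows of that length, 23.2% held GATAA, 22.1% TGATA, 40.6% AAGTG, 11.8% CATTCC and 1.5% a CArG box. The share of windows where TGATA runs into GATAA was not counted, so how common that form is remains unknown here. The windows of Nppc, Npr1, Npr3 and Corin, the other genes matched in the table, held none of these letters. A match is only a run of letters, and binding was not measured.

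Nppa was the gene with the second highest level per length in the table, at a mean of 5282 FPKM (a level per transcript length and library size), and alone took 0.294% to 0.544% of all counts of a library. In normalised CPM (counts scaled to library size, not to length), the libraries of the sORF6 control read 4031, 4720 and 4043, and those of sORF6 read 5366, 5331 and 5517. All sORF6 libraries lay above all of their controls, although replicate 2 of the control stood well above the other 2. The control of sORF7 read 3529, 4015 and 4033, and sORF7 itself 3026, 2934 and 3201. Here every sORF7 library lay below every control, and these were the lowest Nppa levels of the series. The control of sORF8 read 3783, 3735 and 3671 and sORF8 4755, 4782 and 4923, again without overlap.

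The log2 fold change of Nppa was 0.34 ± 0.05 (SE) with sORF6, a rise of 26.7% (edgeR adjusted p = 0.00054825). It was -0.34 ± 0.05 with sORF7, a change of -20.9% (edgeR adjusted p = 0.0005794), and 0.37 ± 0.05 with sORF8, a rise of 29.2% (edgeR adjusted p = 0.00047653). The effect of sORF7 differed from that of sORF6 by 0.68 ± 0.08 on the log2 scale (edgeR adjusted p = 6.116e-06) and from that of sORF8 by -0.71 ± 0.08 (edgeR adjusted p = 1.0621e-05). Between sORF6 and sORF8 the difference was -0.03 ± 0.08 (edgeR adjusted p = 0.916), which did not pass the test. Ordered by mean level, sORF6 came first (5405 ± 98.6, SD, n = 3), then sORF8 (4820 ± 90.2), the controls of sORF6 (4265 ± 394), sORF7 (3859 ± 286) and sORF8 (3730 ± 56.4), and last sORF7 (3054 ± 136). The 3 control groups overlapped with their neighbours in that order, and the other neighbours did not.

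Nppb was less abundant at 1700 FPKM, the 16th highest level per length. Libraries of the sORF6 control read 1019, 1239 and 1009 normalised CPM and those of sORF6 1262, 1270 and 1304. The groups did not overlap, but replicate 2 of the control came close to the lowest sORF6 library. The control of sORF7 read 959, 1087 and 1066 and sORF7 876, 807 and 884. That of sORF8 read 869, 872 and 850 and sORF8 1083, 1107 and 1063. In both of these experiments the groups were apart, below the control with sORF7 and above it with sORF8.

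Nppb rose with sORF6 by a log2 fold change of 0.23 ± 0.06 (edgeR adjusted p = 0.038971), fell with sORF7 by 0.28 ± 0.06 (edgeR adjusted p = 0.0080212) and rose with sORF8 by 0.33 ± 0.06 (edgeR adjusted p = 0.0041401). In percent these were changes of 17.4%, -17.5% and 25.5%. The sORF7 and sORF8 calls held in all 27 other fits. The sORF6 call was lost in 15 of the 27, among them both fits of FPKM and 12 of the 18 that left out 1 library. It was lost as well where the 6 libraries of its experiment were fitted alone (edgeR adjusted p = 0.176). In the sORF6 experiment it was lost without control replicate 1 (adjusted p = 0.1845) or 3 (0.158, log2 fold change 0.18) or without sORF6 replicate 1 (0.0947), 2 (0.0936) or 3 (0.141), all in edgeR. It was also lost, at adjusted p of 0.0501 to 0.0536, without sORF7 replicate 1 or any 1 of the 3 libraries of sORF8 or of its control. The effects of sORF6 and sORF7 differed by 0.51 ± 0.09 (edgeR adjusted p = 0.00052588), and those of sORF7 and sORF8 by -0.61 ± 0.09 (edgeR adjusted p = 0.0002258). Those of sORF6 and sORF8 differed by -0.10 ± 0.09 (edgeR adjusted p = 0.689), which did not pass.

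**Figure D1:**
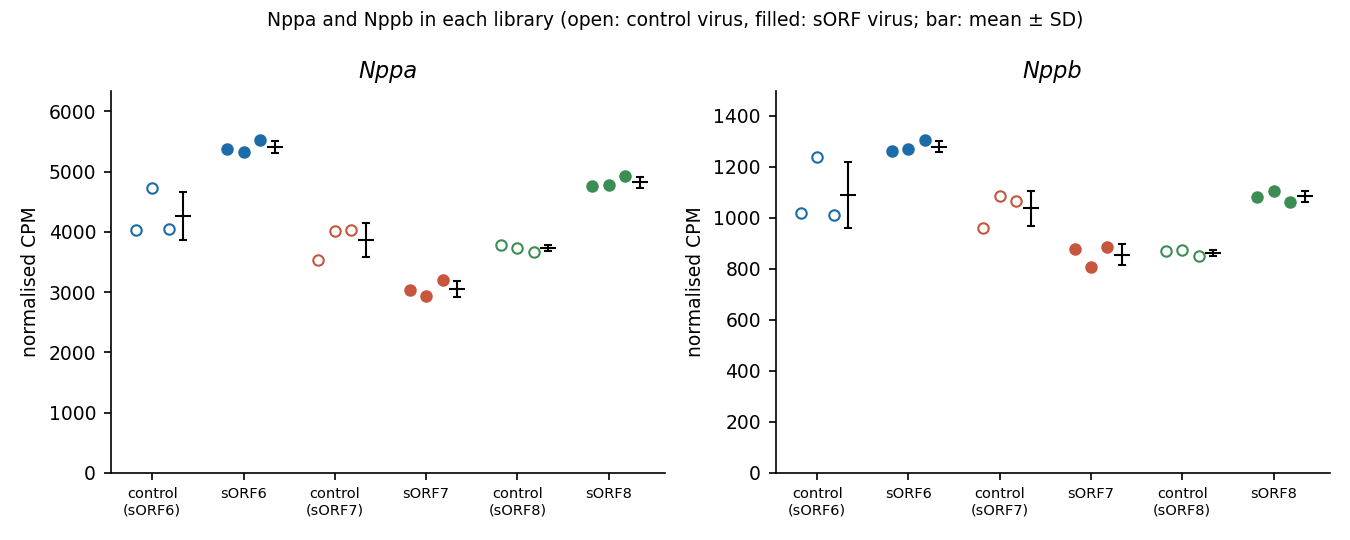
Normalised CPM of Nppa (left) and Nppb (right) in each of 18 libraries, by group. Open points are control virus, filled points the sORF virus, and bars the mean ± SD of 3 libraries. For both genes the filled points lie above their controls for sORF6 and sORF8 and below them for sORF7, and control replicate 2 of sORF6 is the highest control.

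The control library that stood apart was also the one farthest from its group over all genes. Its counts differed from those of the other 2 sORF6 controls by a chi-square of 11.2 and 11.4 per gene, where those 2 differed by 3.85. Without it, the log2 fold change with sORF6 was 0.42 ± 0.05 for Nppa (edgeR adjusted p = 6.2255e-06) and 0.33 ± 0.05 for Nppb (9.5471e-05), against 0.34 and 0.23 with it. Replicate 1 of the sORF7 control, lowest of its group in both genes, differed from the other 2 by 6.51 and 7.28 per gene, and these from each other by 4.13. By mean distance to its group over expressed genes it did not stand apart (19.8, against 20 and 19.6 for replicates 2 and 3). Both it and replicate 2 of the sORF6 control were then left out. Nppa changed by 0.42, -0.39 and 0.37 and Nppb by 0.33, -0.32 and 0.32 with sORF6, sORF7 and sORF8. As with these libraries, 3, 2 and 3 members were called.

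Per length, Nppa exceeded Nppb by 2.65 to 3.56 times in FPKM over the 18 libraries. The ratio was 3.22 to 3.26 with sORF6 and 2.92 to 3.07 in its control, and 2.65 to 2.79 with sORF7 and 2.82 to 2.91 in its control. Nppa thus gained more than Nppb where both rose with sORF6 and lost more where both fell, without overlap of the ratios. With sORF8 the ratio was 3.32 to 3.56 and in its control 3.28 to 3.34, which overlapped.

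Both genes were also called with changes of the same 3 directions (up with sORF6, down with sORF7, up with sORF8). These directions were called in 14 of 14870 genes, or 0.0941%, Nppa and Nppb among them. The other 12, named after their values were seen, were Aldh6a1, Aqp1, Cacna1g, Casq2, Dtna, Lamb3, Mybpc3, Myh7, Myom2, Sorbs2, Synpo2l and Tril. The pattern was taken from the values of Nppa and Nppb themselves. Only the 144 genes called up with sORF6 could share it. The percentage therefore does not measure how unusual the peptide genes are. Myh7, Mybpc3 and Myom2 encode thick filament and M-band proteins of the sarcomere, Casq2 the calcium store of the sarcoplasmic reticulum and Cacna1g a T-type calcium channel. The nearest in size to Nppa was Myom2, with log2 fold changes of 0.35, -0.41 and 0.48. The opposite directions were called in 6 genes. Membership rests on 3 calls at the cutoff, and the sORF6 call of Nppb was lost in 15 of 27 other fits.

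Across the 18 libraries, the levels most like those of Nppa among 10143 genes compared were those of S1pr1 (Pearson r = 0.946), Tril (0.945), Nppb (0.909), Sorbs2 (0.909) and Inafm2 (0.907). Those most like Nppb were Nppa (0.909), Frmd5 (0.908), Slmap (0.898), Mybpc3 (0.892) and Gpr155 (0.89). Of the other members, Npr3 came nearest, with 0.571 to Nppa and 0.674 to Nppb, while Furin read -0.078 and -0.424. These values describe log2 normalised CPM over libraries that share experiment and control level and include the outlying control_sORF6 replicate 2, and no p is given.

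Marker genes of cell types moved beside the peptides. All 10 cardiomyocyte markers looked for were measured, and their summed level was 50273 to 52486 normalised CPM with sORF6 (control 48889 to 52919), 45373 to 46510 with sORF7 (control 48183 to 50987) and 37893 to 39117 with sORF8 (control 31612 to 31845). The sum was thus lower with sORF7 and higher with sORF8 than in every control library, and overlapped with sORF6. These shifts lay largely in few abundant genes. Actc1 went from a mean of 23002 to 20574 with sORF7, not called (edgeR adjusted p = 0.0529), and from 14823 to 16960 with sORF8. Myh6 went from 6580 to 7580 with sORF7, against the sum, and from 2804 to 4886 with sORF8. Of these 10 markers, 0 rose and 1 fell with sORF6, 0 rose and 2 fell with sORF7, and 6 rose and 0 fell with sORF8. Beside these and the marker counts below, 3.85%, 7.77% and 3.75% of all genes were called.

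All 10 fibroblast markers were measured as well, summing to 8864 to 9385 with sORF6 (control 7874 to 8687), 7635 to 7982 with sORF7 (control 8021 to 8934) and 7877 to 8266 with sORF8 (control 7819 to 7980). Of these, 2 rose and 1 fell with sORF6 and 3 fell with sORF7. The fibroblast sum therefore went the way of the peptides with sORF6 and sORF7 and overlapped with sORF8. The 9 atrial markers, which leave out Nppa, summed to 454 to 474 with sORF6 (control 394 to 450), 369 to 390 with sORF7 (control 406 to 448) and 256 to 273 with sORF8 (control 259 to 267). Their sums too were apart from the control in the first 2 experiments, up with sORF6 and down with sORF7, and overlapped in the last. Of 8 atrial markers tested, 1 rose with sORF6 (Myl4), 2 fell with sORF7 (Dkk3 and Myl4) and 1 rose with sORF8 (Myl7). Myl4 alone went from a mean of 195 to 235 with sORF6, so that shift of the sum lay largely in 1 gene. Leukocyte markers (8 of 9 measured) summed to less with sORF6 (122 to 136, control 143 to 164), and epicardial markers (6 of 6) to less with sORF7 (40.3 to 45.4, control 48.4 to 54.6) and with sORF8 (51.1 to 51.8, control 54.8 to 64.4). Markers of smooth muscle and pericytes (8 of 8) summed to less with sORF6 (2924 to 3044, control 3096 to 3149) and more with sORF8 (2706 to 2860, control 2565 to 2640), and endothelial ones (9 of 9) to more with sORF8 (63.8 to 69.0, control 59.0 to 63.2). In the experiments not given for these 4 lists the sums overlapped with the control, and no measured marker of any list was at 0 in all libraries. Their part in the peptide results was not tested, and in bulk RNA fewer cells of a type and less RNA per cell cannot be told apart.

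Both peptide genes are short, with effective lengths of 792 bases for Nppa and 608 for Nppb. The 635 genes of 500 to 1000 bases whose average log2 CPM reached 3 had a median log2 fold change of -0.04, 0.03 and 0.00 with sORF6, sORF7 and sORF8. With a correction for length, Nppa changed by 0.38, -0.35 and 0.36 and Nppb by 0.28, -0.30 and 0.31, all called by edgeR.

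Nppc, the gene of the C-type peptide (chromosome 9, 93731436 to 93735636, minus strand), was covered by few counts. Its 3 libraries of each group summed to 12 counts in the sORF6 control and 27 with sORF6, to 29 in the sORF7 control and 16 with sORF7, and to 22 in the sORF8 control and 8 with sORF8. Single libraries held 1 to 11 counts. The filter on low counts asks for about 10 counts, scaled to library size, in 3 libraries. Only sORF6 replicate 3, replicates 1 and 2 of the sORF7 control and replicate 3 of the sORF8 control reached that, at 11 counts each. All lay in the higher group of their experiment, so Nppc passed the filter only through its high groups. The log2 fold changes of 1.16 ± 0.55, -0.88 ± 0.52 and -1.45 ± 0.61 did not pass (edgeR adjusted p = 0.326, 0.377 and 0.228). Without the filter they did not pass either (edgeR adjusted p = 0.442, 0.495 and 0.313). What size of change could be detected at such counts was not tested. The authors' deposited table gave Nppc a log2 fold change of -1.5 with sORF8 at a q-value of 0.0355. That table called 21.9%, 27.4% and 22.7% of its genes at a q-value under 0.05 in the 3 experiments, several times the share called here.

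Among the receptors, Npr1 (chromosome 2, 189840403 to 189857032, minus strand) was the least abundant at a mean of 3.65 FPKM. It read 14.7 to 16.5 normalised CPM in the sORF6 control and 15.1 to 16.3 with sORF6, 15.5 to 17.7 in the sORF7 control and 13.4 to 16.4 with sORF7, and 12 to 16.4 in the sORF8 control and 12.8 to 15.5 with sORF8. All 6 groups overlapped with their neighbours in order of mean level. Its log2 fold changes were 0.01 ± 0.10, -0.15 ± 0.10 and 0.05 ± 0.11 (edgeR adjusted p = 0.977, 0.471 and 0.876).

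Npr2 (chromosome 5, 59128186 to 59147321, plus strand) had a mean of 7.01 FPKM, the highest of the 3 receptor genes. With sORF6 its libraries read 30.1, 31.0 and 29.6 normalised CPM and those of the control 27.4, 26.9 and 27.6. These groups did not overlap and sORF6 was the highest group of the series, yet the log2 fold change of 0.15 ± 0.08 did not pass (edgeR adjusted p = 0.374). The authors' deposited table gave 0.137 at a q-value of 0.0449. With sORF7 and sORF8 the changes were -0.04 ± 0.08 in both, within overlapping groups.

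Npr3, the clearance receptor gene (chromosome 2, 61865891 to 61951480, minus strand), had a mean of 4.26 FPKM. Its libraries read 20.8, 22 and 21.8 normalised CPM in the sORF8 control and 25.9, 24.2 and 27.5 with sORF8. The sORF8 libraries lay above all of their controls, which were the lowest Npr3 group of the series. The log2 fold change was 0.26 ± 0.07, a rise of 20.1% (edgeR adjusted p = 0.037014). This call was lost in 11 of 27 other fits, among them DESeq2 (adjusted p = 0.0618), both fits of FPKM and 6 fits that left out 1 library. Those were the fits without any 1 of the sORF8 controls (0.0799 to 0.142), without sORF8 replicate 1 (0.109) or 3 (0.159), or without sORF6 replicate 3 (0.0512).

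With sORF7, Npr3 read 21.1, 23.9 and 24.4 normalised CPM against 27.0, 25.3 and 26.9 in the control. All sORF7 libraries lay below their controls, but the log2 fold change of -0.19 ± 0.07 did not pass (edgeR adjusted p = 0.103). The authors' deposited values for it were -0.167 at a q-value of 0.0150. With sORF6 the groups overlapped, at 0.03 ± 0.07 (edgeR adjusted p = 0.908). The effects of sORF7 and sORF8 differed by -0.45 ± 0.10 (edgeR adjusted p = 0.0058817), so that Npr3 joined Nppa and Nppb in that comparison. The direction with sORF6 depended on the unit: in FPKM, which weighs the 6 annotated transcripts of Npr3 by length, the mean was 4.87 in the control and 4.49 with sORF6, while in normalised CPM it was 27.0 and 27.5.

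Corin (chromosome 14, 38247379 to 38474931, plus strand) had a mean of 5.82 FPKM. It read 27.8 to 29.9 normalised CPM in the sORF6 control and 28.7 to 31.8 with sORF6, 29.4 to 31.8 in the sORF7 control and 30.9 to 32.9 with sORF7, and 21.4 to 24.7 in the sORF8 control and 20.8 to 23.9 with sORF8. Each sORF group overlapped with its control. The log2 fold changes were 0.05 ± 0.06, 0.04 ± 0.06 and -0.07 ± 0.07 (edgeR adjusted p = 0.810, 0.810 and 0.659).

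Furin (chromosome 1, 142185092 to 142201199, minus strand) was the most abundant gene of the 8 after both cardiac peptides, at 103.02 FPKM. Its libraries read 402, 388 and 394 normalised CPM in the sORF6 control and 358, 347 and 355 with sORF6. Every sORF6 library lay below every control, and these were the lowest Furin levels of the series. The log2 fold change was -0.16 ± 0.03, a change of -10.5% (edgeR adjusted p = 0.0047401), which was lost only where the 6 libraries of that experiment were fitted alone (adjusted p = 0.0691). With sORF7 and sORF8 it was 0.02 ± 0.03 in both (edgeR adjusted p = 0.841 and 0.860). In the sORF6 experiment, then, Nppa and Nppb were called up and Furin down in the main fit. Where the 6 libraries of that experiment were fitted alone, the calls of both Nppb and Furin were lost, and that of Nppa held.

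The effect of sORF6 on Furin differed from that of sORF7 by -0.18 ± 0.04 (edgeR adjusted p = 0.014434) and from that of sORF8 by -0.17 ± 0.04 (edgeR adjusted p = 0.032687). The latter call was lost in 10 of 26 other fits. Of these, 9 left out 1 library, at adjusted p of 0.0519 to 0.0946: replicate 1 or 3 of the sORF6 control, any 1 of sORF6, replicate 1 or 2 of the sORF8 control, and replicate 1 or 3 of sORF8. The authors' deposited table gave Furin -0.170 with sORF6 (q-value 4.11e-29), and also 0.0388 with sORF7 at a q-value of 0.0261.

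**Figure D2:**
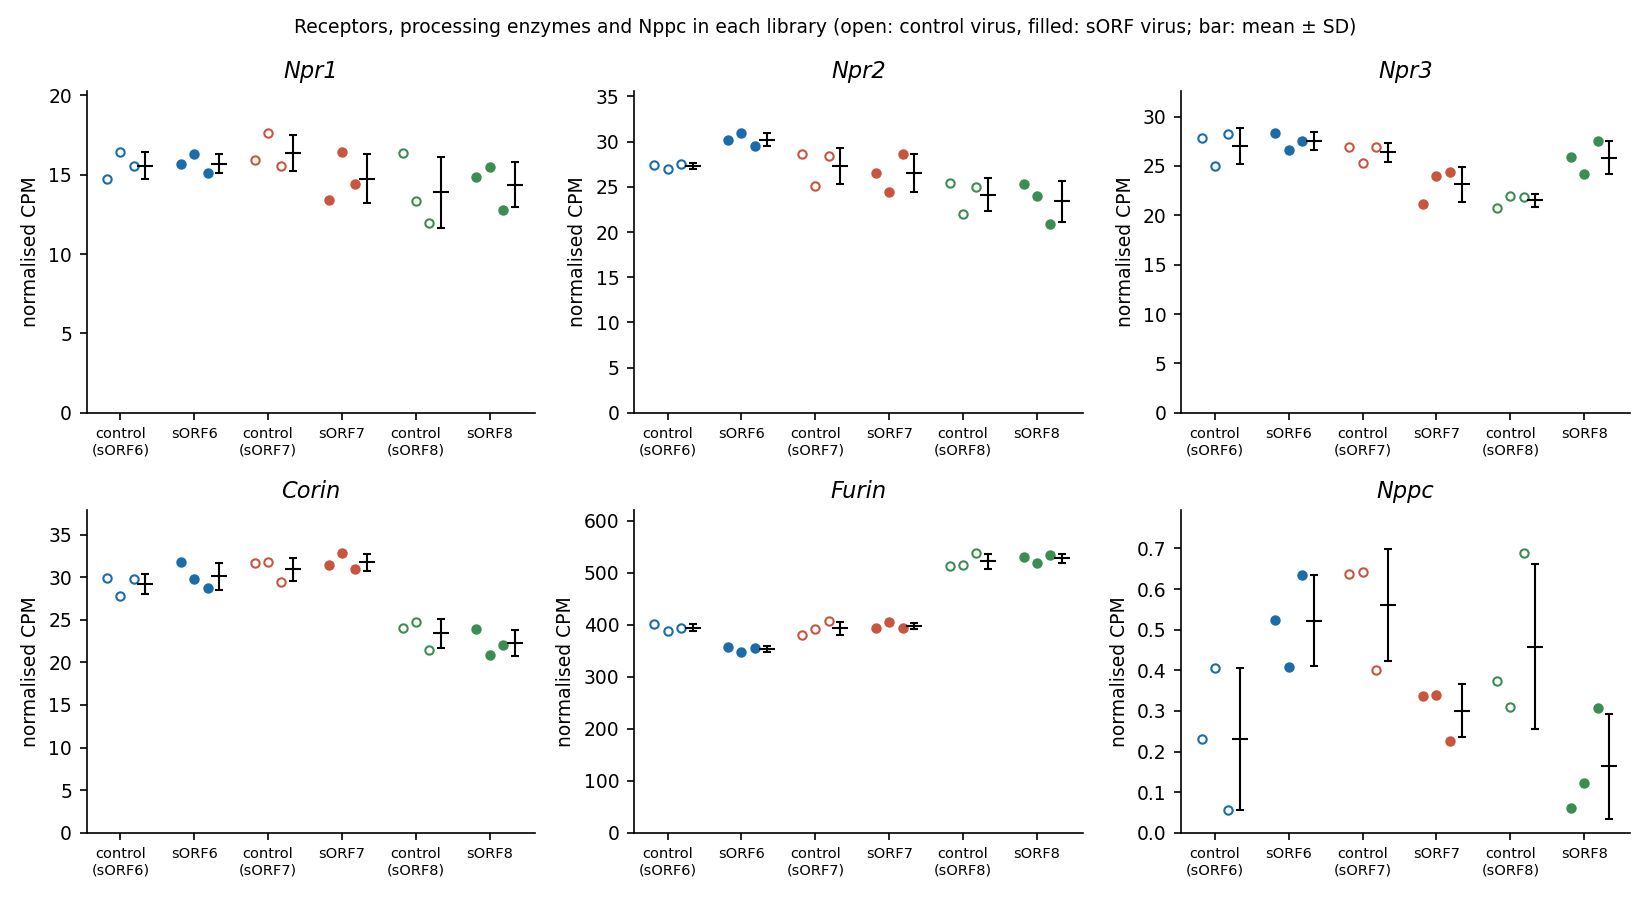
Normalised CPM of Npr1, Npr2, Npr3, Corin, Furin and Nppc in each of 18 libraries, by group, each panel on its own scale from 0. Open points are control virus, filled points the sORF virus, and bars the mean ± SD of 3 libraries. Furin is lower with sORF6 than in its control, Npr3 is higher with sORF8 than in its control, and both groups of the sORF8 experiment stand apart in Corin and Furin.

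Counted over experiments, the effects of sORF6 and sORF7 differed for 3 of the 8 genes (Nppa, Nppb and Furin), where 11.2% of all genes differed. Those of sORF6 and sORF8 differed for 1 (Furin), where 3.69% of all genes differed. Those of sORF7 and sORF8 differed for 3 (Nppa, Nppb and Npr3), where 7.72% of all genes differed. Groups did not overlap in 5 members with sORF6, 4 with sORF7 and 4 with sORF8, Nppc among them each time, where 20.6%, 23.1% and 24.4% of all genes did not overlap. For Nppc this rests on the scaling to library size in 2 experiments: a control and an sORF library held the same count, 7 in the sORF6 experiment and 5 in that of sORF8. Nppc also passed the filter on low counts only through libraries of the higher group of each experiment.

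**Figure D3:**
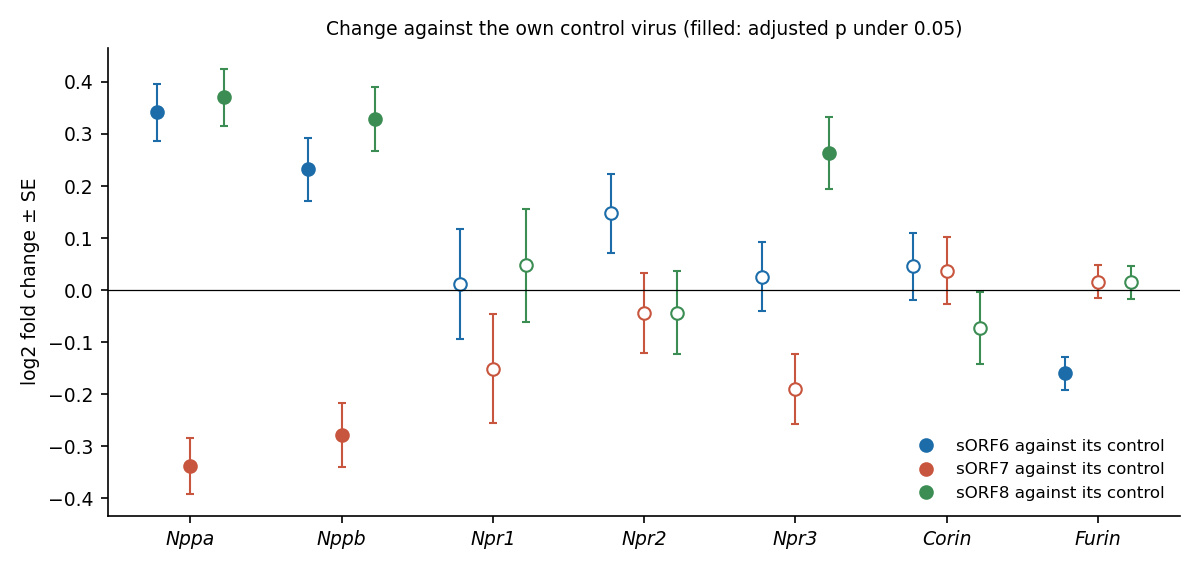
Log2 fold change ± SE against the own control virus for 7 members, with Nppc left out for its low counts. Filled points have an adjusted p under 0.05. Nppa and Nppb are above 0 with sORF6 and sORF8 and below 0 with sORF7, and Furin is below 0 with sORF6.

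The 3 control groups differed from each other in 5 of the 8 genes, where 38.4% of all genes differed, so levels cannot be set across experiments as an effect of an sORF. The control of sORF8 was the one that stood apart. Its Furin level was 522 ± 14.5 normalised CPM (SD, n = 3) against 395 ± 7.0 and 393 ± 13.0 in the controls of sORF6 and sORF7 (joint edgeR F test, adjusted p = 3.5199e-09). Its Corin level was 23.4 ± 1.71 against 29.2 ± 1.16 and 30.9 ± 1.35 (edgeR adjusted p = 0.00017324), so the enzyme genes lay in opposite directions there. Nppb and Npr3 were lower in it as well (joint edgeR adjusted p = 0.00053145 and 0.001209). For Nppa the range of the 3 control means was 0.19 on the log2 scale (edgeR adjusted p = 0.018824), and that call was lost without control_sORF6 replicate 2 (0.125) or control_sORF8 replicate 3 (0.0510).

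Around the members, genes of the pathway were counted from lists. Over all genes, 3.85%, 7.77% and 3.75% were called with sORF6, sORF7 and sORF8. Of 12 other genes for cleavage and clearance of the peptides, 9 were tested, and 0, 1 and 0 rose and 1, 1 and 0 fell with sORF6, sORF7 and sORF8. Pcsk6, which encodes a convertase that activates corin, fell with sORF6 (-0.21 ± 0.05, edgeR adjusted p = 0.0173) and rose with sORF7 (0.17 ± 0.05, edgeR adjusted p = 0.0393). It went from 74.7 ± 2.94 to 64.6 ± 1.88 normalised CPM (SD, n = 3) with sORF6 and from 75.9 ± 3.95 to 85.3 ± 3.59 with sORF7, opposite to both peptides in each. The effects of sORF6 and sORF7 on Pcsk6 differed by -0.38 ± 0.07 (edgeR adjusted p = 0.0010344). Dpp4, a peptidase that trims the B-type peptide, fell with sORF7 from 3.86 ± 0.23 to 2.09 ± 0.19 normalised CPM (-0.88 ± 0.16, edgeR adjusted p = 0.0019695). The list median was -0.01, 0.08 and 0.03.

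Of 14 genes for cGMP synthesis and breakdown, 12 were tested, and 0, 0 and 1 rose and 0, 1 and 0 fell, with medians of 0.09, -0.16 and 0.13. With at most 1 call an experiment, the list was near the 3.85%, 7.77% and 3.75% of all genes called. Pde2a, a phosphodiesterase that cGMP stimulates, rose with sORF8 from 29.8 ± 0.60 to 36.0 ± 0.84 normalised CPM (0.27 ± 0.07, edgeR adjusted p = 0.0277). Pde6d, which encodes a carrier of prenylated proteins rather than a catalytic subunit, fell with sORF7 (-0.29 ± 0.08, edgeR adjusted p = 0.0281). For Pde5a, the cGMP-specific phosphodiesterase, the effects of sORF7 and sORF8 differed by -0.43 ± 0.10 (edgeR adjusted p = 0.0091891), while neither effect passed alone. For Pde3a, a phosphodiesterase that cGMP inhibits, those of sORF6 and sORF7 differed by 0.28 ± 0.08 (edgeR adjusted p = 0.0255).

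Of 13 genes downstream of cGMP, 10 were tested, and 0, 1 and 0 rose and 0, 0 and 1 fell, with medians of 0.00, -0.01 and -0.08. At most 1 call an experiment is near the 3.85%, 7.77% and 3.75% of all genes called. Each call in this list was Rgs2, which encodes a brake on Gq-coupled receptors such as that of PE. It is also a target of cGMP-dependent kinase. It rose with sORF7 from 48.5 ± 1.14 to 66.0 ± 1.60 normalised CPM (0.44 ± 0.05, edgeR adjusted p = 1.4531e-05). With sORF8 it fell from 90.4 ± 1.5 to 72.7 ± 0.99 (-0.31 ± 0.05, edgeR adjusted p = 0.00039113), and with sORF6 it read -0.12 ± 0.05 (edgeR adjusted p = 0.206). Its called changes were thus opposite in direction to those of Nppa, and the effects of sORF7 and sORF8 on it differed by 0.76 ± 0.07 (edgeR adjusted p = 6.1782e-07). For Pln, the gene of phospholamban, the inhibitor of the calcium pump, those effects differed by -0.25 ± 0.06 (edgeR adjusted p = 0.0132).

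A chosen list of 26 transcription factors and cofactors linked to the Nppa or Nppb promoter was tested in full. With sORF6, sORF7 and sORF8, 0, 0 and 1 rose and 1, 3 and 0 fell, with medians of 0.04, -0.05 and 0.00. With at most 3 calls an experiment, the list was near the 3.85%, 7.77% and 3.75% of all genes called. Gata4, which binds GATA sites of cardiac promoters, fell with sORF7 from 415 ± 17.4 to 335 ± 5.84 normalised CPM (-0.31 ± 0.03, edgeR adjusted p = 1.4548e-05). Tbx20, a T-box factor of the myocardium, fell with sORF7 (-0.32 ± 0.06, edgeR adjusted p = 0.0026343) and rose with sORF8 (0.28 ± 0.06, edgeR adjusted p = 0.0168). Mef2a fell with sORF7 (-0.19 ± 0.04, edgeR adjusted p = 0.0041494), and Hand2 fell with sORF6 (-0.25 ± 0.06, edgeR adjusted p = 0.0265).

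The effects of sORF6 and sORF7 differed by 0.38 ± 0.05 for Gata4 (edgeR adjusted p = 1.4385e-05) and by 0.44 ± 0.09 for Tbx20 (edgeR adjusted p = 0.0022405). Those of sORF7 and sORF8 differed by -0.42 ± 0.05 and -0.60 ± 0.09 (edgeR adjusted p = 1.3592e-05 and 0.00027445). In each of these the sign was that of Nppa. Between sORF6 and sORF7, 6 of the 26 factors differed in that direction and 2 in the other, where 11.2% of all genes differed. Those 2 were Tbx3 (-0.82 ± 0.21, edgeR adjusted p = 0.0130), the largest difference of the list, and Hand2 (-0.31 ± 0.09, edgeR adjusted p = 0.0260). Gata4 read 0.07 ± 0.03 with sORF6 (edgeR adjusted p = 0.30) and 0.11 ± 0.03 with sORF8 (edgeR adjusted p = 0.0692), neither of which passed. A link between these factors and the peptide genes was not tested.

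Of 16 other hypertrophy and fetal cardiac genes tested, 3, 1 and 6 rose and 1, 6 and 1 fell, with medians of 0.04, -0.13 and 0.10. Over all genes, 3.85%, 7.77% and 3.75% were called. Ankrd1, a stretch-responsive cofactor gene, fell with sORF7 (-0.31 ± 0.04, edgeR adjusted p = 8.916e-05) and rose with sORF8 (0.25 ± 0.04, edgeR adjusted p = 0.0013195). Myl4, the atrial essential light chain gene, rose with sORF6 (0.27 ± 0.06, edgeR adjusted p = 0.0118) and fell with sORF7 (-0.21 ± 0.06, edgeR adjusted p = 0.0328). Myh7, the gene of the slow myosin, rose with sORF6 (0.25 ± 0.06, edgeR adjusted p = 0.0217), fell with sORF7 (-0.46 ± 0.06, edgeR adjusted p = 8.916e-05) and rose with sORF8 (0.34 ± 0.06, edgeR adjusted p = 0.0029072). Fhl1, which encodes a LIM protein of the sarcomere, rose with sORF6 (0.13 ± 0.03, edgeR adjusted p = 0.0135) and fell with sORF7 (-0.21 ± 0.03, edgeR adjusted p = 0.00022511). Atp2a2, the gene of the calcium pump of the sarcoplasmic reticulum, rose with sORF8 (0.25 ± 0.04, edgeR adjusted p = 0.00047653).

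In each experiment 1 called gene of that list moved in the direction opposite to the peptides. The list pools adult with fetal genes, so its counts and medians do not stand for a single direction of hypertrophy. Myh6, the gene of the adult fast myosin, fell with sORF6 (-0.32 ± 0.07, edgeR adjusted p = 0.0117), although with sORF8 it rose as they did (0.80 ± 0.07, edgeR adjusted p = 2.1875e-06). Gdf15, a stress-induced cytokine gene, rose with sORF7 (0.35 ± 0.08, edgeR adjusted p = 0.0123), and Uchl1, the gene of a ubiquitin hydrolase, fell with sORF8 (-0.29 ± 0.06, edgeR adjusted p = 0.0103). Gdf15 and Uchl1 are named after their values were seen. Myh6 and Actc1 are also on the cardiomyocyte marker list above, Myl4 and Myl7 on the atrial one, and Cnn1 on that of smooth muscle and pericytes.

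**Figure D4:**
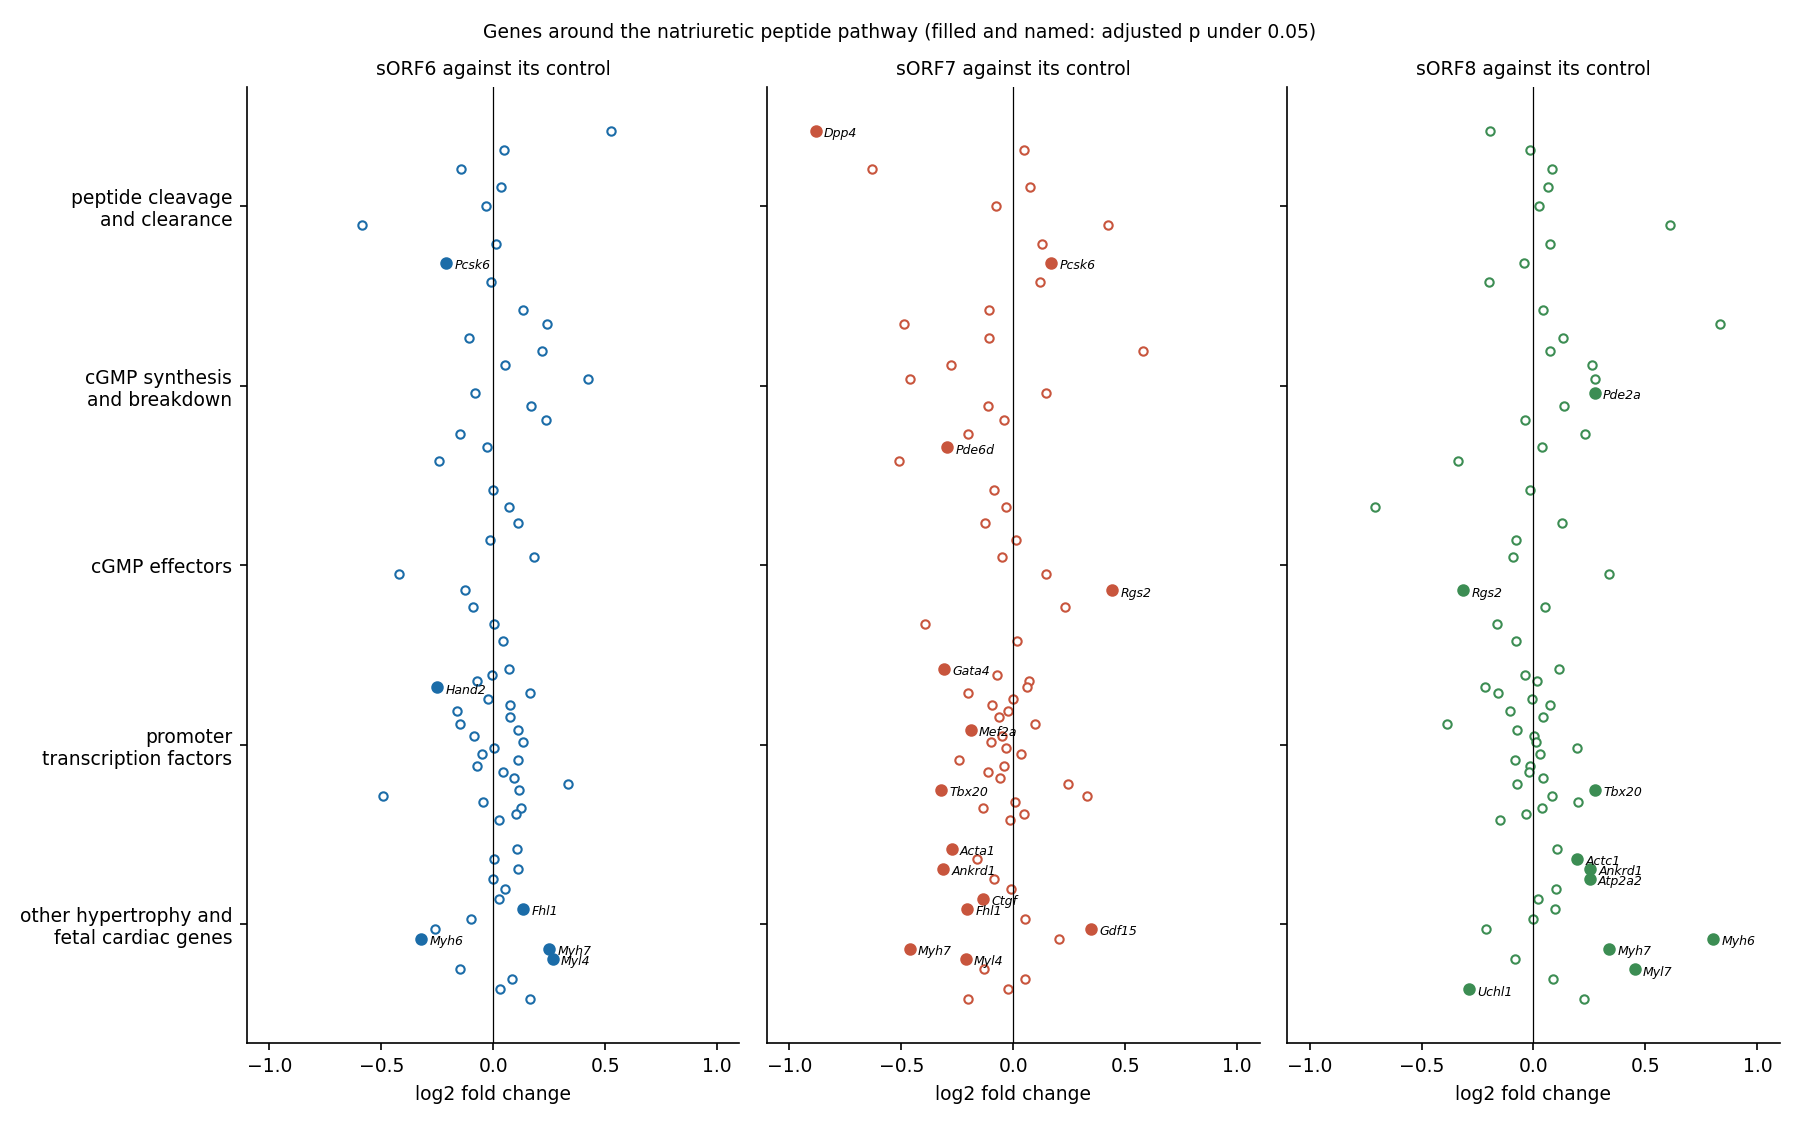
Log2 fold change against the own control virus for every tested gene of 5 lists around the natriuretic peptides, 1 panel per sORF. Filled, named points have an adjusted p under 0.05. Rgs2 lies above 0 with sORF7 and below 0 with sORF8, and Tbx20 the other way.

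On chromosome 5, 13 other genes of the table lay within 200 kb of the start of Nppa or Nppb, and 11 of them were tested. With sORF6, sORF7 and sORF8, 0, 0 and 1 rose and 1, 0 and 1 fell, where 3.85%, 7.77% and 3.75% of all genes were called. RGD1305350, 57 kb before Nppa, fell with sORF6 (-0.17 ± 0.04, edgeR adjusted p = 0.0348) and with sORF8 (-0.16 ± 0.04, edgeR adjusted p = 0.0464), opposite to both peptides. Fbxo44, 147.4 kb beyond, rose with sORF8 from 2.68 ± 0.64 to 4.36 ± 0.48 normalised CPM (0.70 ± 0.18, edgeR adjusted p = 0.0311). Clcn6, a chloride transporter gene named for its position 3.4 kb from the Nppa start, read -0.01 ± 0.06, -0.03 ± 0.06 and 0.07 ± 0.06, none of which passed (edgeR adjusted p = 0.969, 0.813 and 0.575).

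**Figure D5:**
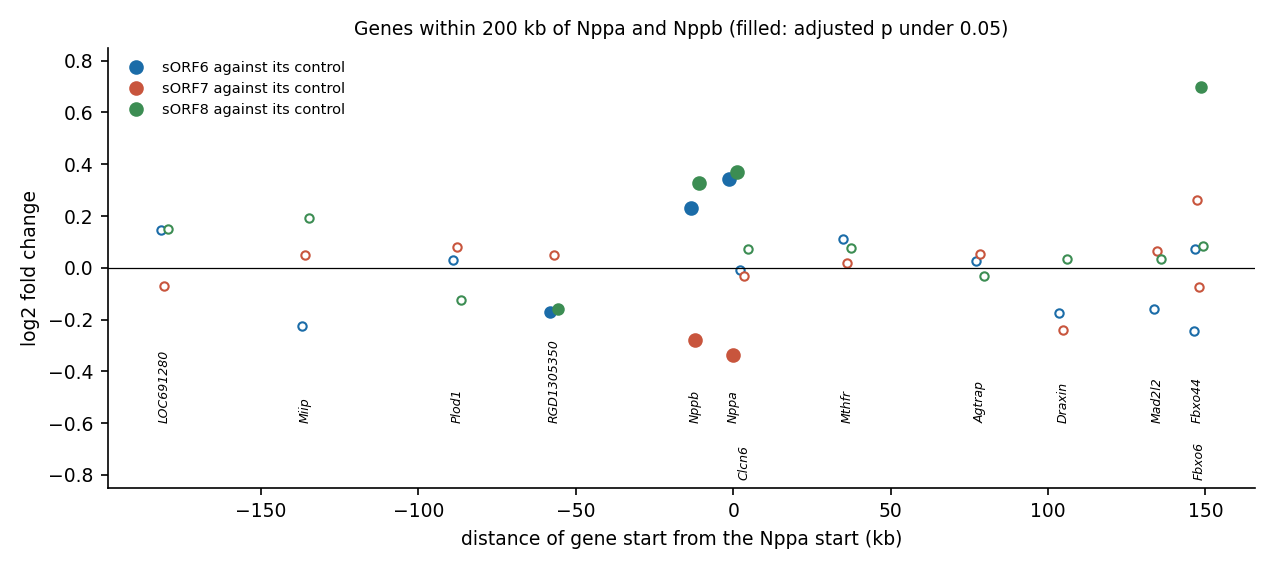
Log2 fold change against the own control virus (vertical) by distance of the gene start from that of Nppa in kb (horizontal), for Nppa, Nppb and 11 tested neighbours, with the 3 experiments set slightly apart. Filled points have an adjusted p under 0.05. Nppa and Nppb move in 3 experiments, RGD1305350 falls in 2, and Clcn6 stays within 0.1 of 0.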

How the data were processed

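RNA of 18 libraries (6 groups of 3, from the titles) was analysed. The authors deposited estimated counts per gene, for which the submitters' processing notes list HISAT2 2.0.4, RSEM 1.2.12 and the build Rnor_6.0 without roles; use of strand is not stated. FPKM values, also from the authors, follow from these counts, effective length and library total. The log2 fold changes and q-values the authors deposited carry the word degseq per the file headers, although the processing notes name DESeq2 1.4.5, and are quoted only as theirs.

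After rounding, counts went into edgeR 4.0.16 (R 4.3.3): filterByExpr by group (14870 of 19880 genes, all 8 members), TMM scaling, and 1 quasi-likelihood model of 6 group means with 12 residual degrees of freedom and a biological coefficient of variation of 6.9%. P-values are two-sided. Values after ± are SE for fold changes and SD for levels. Depth was 15697177 to 17658137 counts. In simulated counts for these 14870 genes, changes of 1.25-fold were recovered in 38%, 36% and 42% of 50 genes each for sORF6, sORF7 and sORF8, changes of 2-fold in 80%, 74% and 68%, and 0.027% to 0.034% of unchanged genes were called.

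Alternatives were RLE scaling, DESeq2 1.42.0, no filter, and limma 3.58.1 on log2(FPKM + 1) and log2(FPKM + 0.1). Others were a replicate block, each library left out, and each experiment alone. A length correction and leaving out control_sORF6 replicate 2 together with control_sORF7 replicate 1 were added after the data were seen. The members and gene lists were chosen with earlier results of these data known. All members are described. Genes of the other lists were named from the up to 3 per comparison with the smallest adjusted p among those called. Clcn6, Gdf15, Uchl1 and Tbx3 fall outside this rule. Likeness is Pearson's r of log2(normalised CPM + 0.5) over 18 libraries among genes whose average log2 CPM reached 3. Promoters of 6 of the 8 members matched in RefSeq's GRCr8 table.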

Additional observations from a re-analysis of the deposited data

Results flagged for a closer look

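In 7 cases the effect of 1 sORF on a member differed from that of another by the test of the difference itself (edgeR's quasi-likelihood test, adjusted over 14870 genes, n = 3 libraries a group). Between sORF6 and sORF7 the log2 fold changes differed by 0.68 for Nppa, 0.51 for Nppb and -0.18 for Furin (edgeR adjusted p = 6.116e-06, 0.00052588 and 0.014434). Between sORF7 and sORF8 they differed by -0.71 for Nppa, -0.61 for Nppb and -0.45 for Npr3 (edgeR adjusted p = 1.0621e-05, 0.0002258 and 0.0058817). Between sORF6 and sORF8 they differed by -0.17 for Furin (edgeR adjusted p = 0.032687). The differences of Nppa and Nppb held in all 26 other fits of each comparison, that of Npr3 in 24 and that of Furin between sORF6 and sORF8 in 16.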

How the results depend on the processing

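No member reversed a call under any alternative. The calls of Nppa in the 3 experiments held under all 27 alternatives, over 0.30 to 0.42 with sORF6, -0.39 to -0.31 with sORF7 and 0.35 to 0.38 with sORF8 (log2 fold change), with adjusted p up to 0.0169, 0.00941 and 0.00681. Adjusted p of Nppb ranged up to 0.185, 0.0494 and 0.0267, and that of Npr3 with sORF8 up to 0.159. The Npr3 difference between sORF7 and sORF8 was lost in both fits of FPKM (adjusted p = 0.0572 and 0.0551). Nppc passed between sORF6 and sORF7 in limma on log2(FPKM + 1) (0.0377) and without control_sORF6 replicate 2 (0.0461), and between sORF6 and sORF8 in both limma fits and without that library (0.0403 to 0.0476). The controls no longer differed in Nppa in both limma fits (0.151 and 0.125), and differed in Npr1 without control_sORF8 replicate 1 (0.0261).

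Counts of genes called were 572, 1156 and 558 for sORF6, sORF7 and sORF8. Fitting only the 6 libraries of an experiment gave 335, 689 and 865, the length correction 915 for sORF8, and leaving out control_sORF6 replicate 2 and control_sORF7 replicate 1 gave 618 for sORF6 and 988 for sORF8. Leaving out each library gave 368 to 611, 681 to 1322 and 264 to 738, and for the differences between sORF6 and sORF7, sORF6 and sORF8, sORF7 and sORF8 and between controls 1261 to 1669, 405 to 599, 787 to 1387 and 4820 to 6197. The split for sORF7 was 612 up and 544 down in edgeR and 740 and 324 in limma on log2(FPKM + 1), that for sORF6 against sORF7 726 and 933 against 456 and 1129, and that for sORF7 against sORF8 565 and 583 against 792 and 376. The causes were not tested. Replicate numbers showed no consistent pairing of libraries (correlations of deviations at the same number -0.11 to 0.251). Some libraries correlated best with their own number and others did not, so pairing was not excluded. The replicate block gave 522, 1022 and 459 calls, and the Npr3 call with sORF8 was lost under it (adjusted p = 0.0610). Depth was lowest for Nppc, with 1 to 11 counts a library.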
